A study of Drosophila melanogaster with 24 samples.

Results

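The difference of the larval diet response between Selected and Control populations of Drosophila melanogaster was measured in the abdominal carcass of mated females. For each replicate population the log2 CPM (counts scaled to the size of the library) of a gene on standard larval food was subtracted from that on poor larval food, and the 6 differences of populations S1 to S6 were compared with the 6 of C1 to C6. All 24 of the 24 libraries of the series enter this comparison, and 10184 expressed genes were tested. The 4 groups of 6 libraries are Control on standard food, Control on poor food, Selected on standard food and Selected on poor food. The poor food held 0.25 of the yeast, sugars and cornmeal of the standard food, with the other ingredients kept at the same concentration, and about 200 eggs were placed on each 40 ml. All adults, from both foods and both regimes, were moved to standard food on day 1 after emergence, so diet here means larval food, and the females were taken at an age of about 4 days. Each library is 1 pool of 10 carcasses, and each population contributes 1 library per diet, so the replicate is the population. In the study these populations come from, the Selected regime is known as one kept on poor larval food over its evolutionary history and the Control regime as its counterpart on standard food; the labels used here name the regimes only as Selected and Control. The title of a library contradicts its other labels, naming the other diet in 24 libraries and the other regime in 12. Groups follow the characteristics, and if all diet names were exchanged every difference below would change sign. With the regime names of those 12 titles the Selected and Control groups would hold other libraries, and the results for such groups were not tested.

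The carcass consists mainly of the abdominal fat body on the body wall. The fat body is the insect organ that stores fat and glycogen, makes yolk and hemolymph proteins and responds to nutrient state through insulin signalling. The epidermis of the body wall secretes the cuticle, and oenocytes, muscle, hemocytes, neurons and leftover pieces of Malpighian tubule are also present. A regime by diet interaction asks whether lines with different histories answer the same larval food differently as adults. In bulk tissue such as this, fewer cells of a type and less RNA per cell cannot be told apart. Total estimated counts were 29.4 to 31.5 M in 23 libraries and 22.4 M in S2 on standard food. That library also had the largest share of counts on ribosomal RNA pseudogenes, 9.30% against 0.727% to 5.42% elsewhere. In every population but S2 this share was higher on poor than on standard food, for example 4.71% against 1.41% in C3. The part it has in the diet differences was not tested. The yolk protein genes of the fat body were among the abundant transcripts in every library, while summed germline markers ranged from 193 to 3015 CPM over all libraries and summed midgut markers from 62.8 to 20630 CPM.

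The interaction was not called for any gene. Of 10184 genes, 0 passed an adjusted p of 0.05 in edgeR's quasi-likelihood test (0%), and the smallest adjusted p was 0.9999. An unadjusted p below 0.05 was found for 155 genes (1.52%), 77 with a larger and 78 with a smaller value in Selected, where 5% of the genes tested would be 509.2. That number was 271 without C4 and 97 without C5. With DESeq2 1 gene passed, the purine synthesis gene Pfas, and with limma-trend and limma-voom 0 passed. The standard error of the interaction had a median of 0.21 log2 units over genes, with quartiles of 0.15 and 0.38. For 7440 genes (73.1%) the 95% interval of the interaction lay within 1 log2 unit of 0, and among the 9151 genes of at least 1 CPM it did so for 7382 (80.7%). A difference of 1 log2 unit or more therefore lay outside the interval for most genes.

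Seen one regime at a time, the diet response was called in Selected and not in Control. Fitted on its own 12 libraries, Control had 0 called genes (0%) by edgeR, with 393 at an unadjusted p below 0.05, 14 called by DESeq2 and 0 by limma-trend and limma-voom. Selected had 64 called genes (0.628%), 43 higher on poor food (0.422%) and 21 lower (0.206%), with 1078 at an unadjusted p below 0.05. The 64 depend on every Selected population: 1 gene was called without S1, 2 without S2, 2 without S3, 15 without S6, 30 without S4 and 30 without S5. A call in one regime and not in the other is no test of a difference, and the test of the difference called none of the 64. Over both regimes together 115 genes were called (1.13%), 88 higher and 27 lower on poor food. This count was 3 without S1, 4 without S5, 22 without S3, 23 without S2, and 38 to 49 without S4, S6, C1, C2, C3 or C4. Of these 115, 33 are among the 64, which is 28.7% of the first list and 51.6% of the second.

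The values of both regimes stood side by side as follows for the 64 genes called in Selected. In Control 61 of the 64 had the same sign. The median size of the log2 response was 1.27 in Selected, and the same genes had a median of 0.48 in Control, counted in the Selected direction. Genes chosen for a small p in Selected tend to have large values there, so this gap is a description and no test. With the reverse choice the gap was small: the 64 genes of smallest p in Control had a median response of 0.65 in Control and 0.62 in Selected in the Control direction, with 58 of the same sign. For the 115 genes called over both regimes, the median size was 0.49 in Control and 0.76 in Selected, and the response was the larger in Selected for 94. These genes were chosen from the same values, and their count fell most without S1 or S5, both Selected. This comparison is therefore also a description and no test. Over all genes the response was the larger in Selected for 58.1%, with median sizes of 0.12 in Control and 0.15 in Selected. Of the 115, 12 had an unadjusted interaction p below 0.05.

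**Figure D1:**
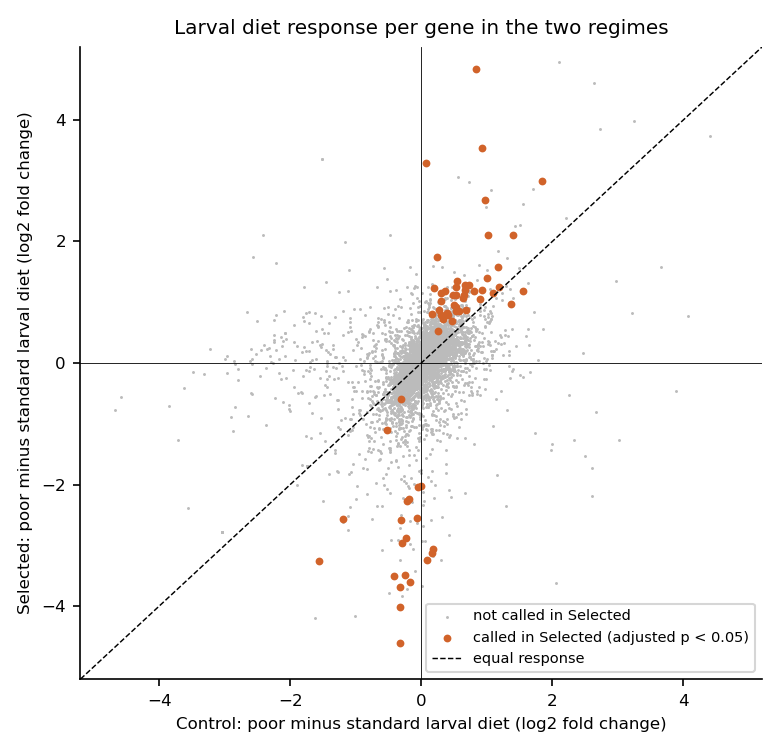
Each point is 1 gene, with the log2 fold change of poor over standard larval food in Control on the x axis and in Selected on the y axis; orange points are the 64 genes called in Selected, the dashed line marks equal responses, and 3 genes lie outside the range shown. The orange genes above 0 lie mostly along or above the line, with some below it, while most of those below 0 lie near 0 on the Control axis.

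The 43 genes higher and the 21 genes lower on poor food in Selected had the following values in Control, given with no test. Those higher on poor food had a median of 1.16 in Selected and 0.58 in Control, and all 43 had the same sign in Control. Those lower on poor food had a median of -2.96 in Selected and -0.25 in Control, and 18 of 21 had the same sign. The Control populations varied widely on the lower genes, where the SD of the 6 differences had a median of 2.59 in Control and 0.85 in Selected. For the higher genes these medians were 0.64 and 0.36. Over all genes they were 0.36 in Control and 0.37 in Selected, and 49.5% of genes had the larger SD in Selected.

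Enzymes of de novo purine synthesis, the pathway that builds the purine ring of ATP and GTP stepwise, were among the genes of smallest unadjusted interaction p, none of them called by edgeR. Pfas (FBgn0000052, 2L 6041181-6046050), whose product catalyses an early step of that pathway, had 114, 135 and 179 CPM as lowest, median and highest of the 6 Control populations on standard food and 110, 144 and 158 on poor food. In Selected it had 130, 151 and 174 CPM on standard food and 158, 192 and 267 on poor food. The differences per population ran from -0.18 to 0.14 in Control and from 0.22 to 0.62 in Selected, so that the regimes did not overlap. The interaction was 0.43 ± 0.09 (SE; 95% interval 0.24 to 0.62; unadjusted p = 3.9e-04), its adjusted p was 0.9999 in edgeR and 0.0336 in DESeq2, and its value ranged from 0.39 to 0.50 over all the settings tried. Pfas itself did not pass for diet in Selected (0.44 ± 0.08, adjusted p = 0.0768 in edgeR).

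The other enzymes of the pathway varied. Paics (FBgn0020513, X 12757036-12760617), a bifunctional enzyme further along it, had median levels of 1205 and 1194 CPM on standard and poor food in Control and of 993 and 1286 CPM in Selected. Its differences ran from -0.28 to 0.46 in Control and from 0.17 to 0.97 in Selected, which overlap, and the interaction was 0.53 ± 0.18 (unadjusted p = 0.011). CG11089 (FBgn0039241, 3R 24877045-24881478), for which the reference gene table gives the synonym atic, was not in the purine list; its interaction was 0.41 (95% interval 0.13 to 0.69), from -0.40 to 0.23 in Control and from 0.08 to 0.65 in Selected. Prat2, one of a pair of genes for the first enzyme of the pathway, had 0.44 (-0.13 to 1.02), and its partner Prat had -0.09 (-1.07 to 0.89), a sign that turned without C1, C6, S1, S3 or S5. Gart had 0.12 (-0.22 to 0.47) and Adsl 0.11 (-0.23 to 0.44). Of the 19 purine genes tested in the list 0 were called, 13 were positive and 3 had an unadjusted p below 0.05 (Pfas, Paics and CG16758), with a median of 0.05 against -0.02 for all genes. Over all genes 44.8% of the interactions were positive, the share to set beside each count of positive values given here and below. CG16758 (FBgn0035348, 3L 2499372-2503606) had an interaction of 0.93 (0.20 to 1.66), with differences from -1.48 to 0.20 in Control and from -0.66 to 1.40 in Selected.

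Enzymes of amino acid and one-carbon metabolism, which supply carbon and nitrogen to purines among other products, had 4 genes at an unadjusted p below 0.05 out of 29, where all genes had 1.52%, and 0 called. Of the 4, 3 were positive (aay, Got2 and Nmdmc) and 1, the transporter gene st, was negative. The phosphoserine phosphatase gene aay (FBgn0023129, 3L 9423253-9424781), which makes serine, had differences from -0.39 to 0.15 in Control and from -0.05 to 0.65 in Selected and an interaction of 0.40 ± 0.13. Got2, the mitochondrial aspartate aminotransferase, had an interaction of 0.40 (95% interval 0.10 to 0.70). Nmdmc, a methylenetetrahydrofolate dehydrogenase of folate metabolism, had 0.76 (0.13 to 1.39), with differences from -0.68 to 0.64 in Control and from 0.22 to 1.69 in Selected. The ranges of aay, Got2 and Nmdmc overlapped between regimes. The list as a whole had 18 of 29 positive values and a median of 0.06.

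**Figure D2:**
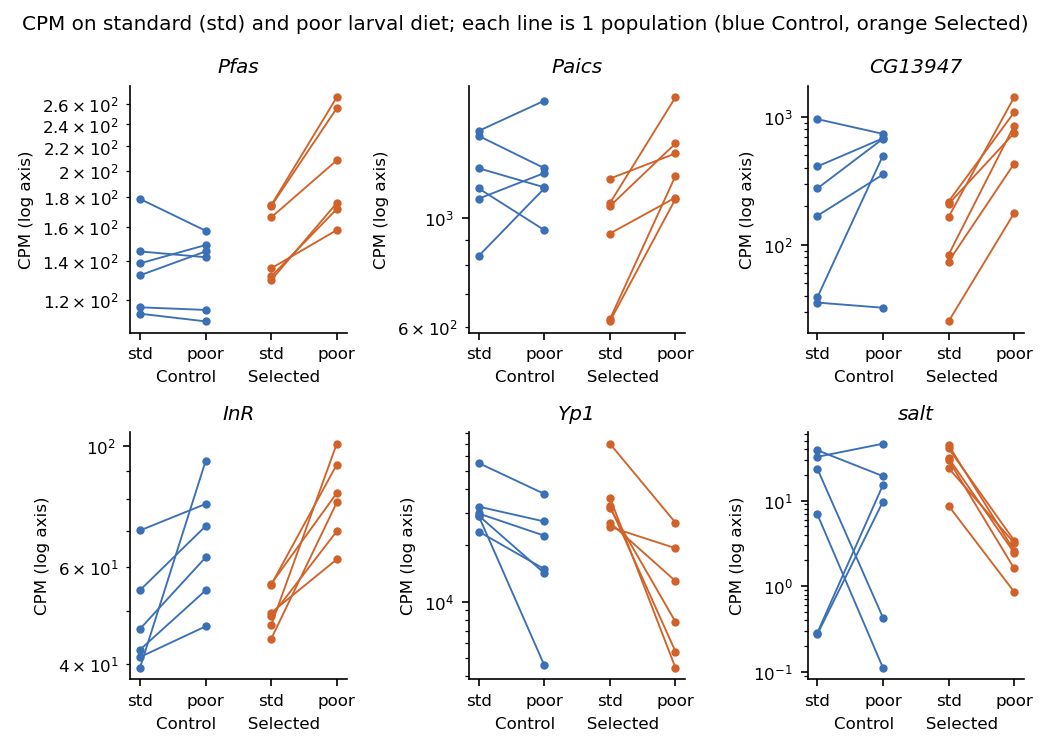
CPM of 6 genes on a log axis, each line joining the standard (std) and poor food libraries of 1 population, Control in blue and Selected in orange. The Pfas lines slope upward in all 6 Selected populations and run both ways in Control, whereas the salt lines fall in all 6 Selected populations and run in both directions in Control.

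Among the other genes of smallest p with a larger value in Selected, CG13947 (FBgn0031277, 2L 779173-779655) had the largest interaction. Its lowest, median and highest CPM were 35.2, 222 and 960 on standard food and 32.1, 586 and 736 on poor food in Control. In Selected they were 25.1, 124 and 218 on standard food and 177, 800 and 1425 on poor food. The gene was higher on poor food in 6 of 6 Selected and 4 of 6 Control populations, and the ranges of the differences overlapped because C3 had 3.68. It rose on poor food in Selected (2.68 ± 0.20, adjusted p = 0.0118 in edgeR), and the interaction was 1.70 ± 0.58 (95% interval 0.43 to 2.96).

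frac (FBgn0035798, 3L 7562610-7569499) had differences from -0.61 to 0.60 in Control and from 0.67 to 1.84 in Selected, without overlap. Its interaction was 1.02 ± 0.26, and it rose on poor food in Selected from a median of 4.06 to 9.28 CPM (adjusted p = 0.0433 in edgeR). phu (FBgn0043791, 3R 9494801-9496723), to which the reference gene table gives the alkaline phosphatase synonym Alp3, had an interaction of 1.37 ± 0.38. Its median was 305 CPM on standard and 247 CPM on poor food in Control, against 117 and 230 CPM in Selected. CG16786 and CG8708 also rose on poor food in Selected, by 1.13 and 1.18, where Control had 0.49 and 0.37. CG18649 (interaction 1.29), Sgp (1.33) and Sclp (0.52) complete these 12 genes and were not called for diet in Selected.

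The 12 genes of smallest p with a smaller value in Selected were mostly lower on poor food in Selected, with a Control mean near 0. For several of them that mean joins differences of both signs. CG6125 went on poor food from 2.41 to 7.14 CPM in C2, from 4.42 to 14.4 in C3 and from 8.64 to 2.47 in C6. The tubule marker salt, described below, moved in the same directions in C2, C3 and C6. The part that leftover tubule has in the values of these genes was not tested. CG6726 (FBgn0039049, 3R 23091724-23095184) had a median of 17.1 CPM on standard and 14.1 CPM on poor food in Control, and of 55.2 and 10.0 CPM in Selected. All 6 Selected populations were lower on poor food, from -3.10 to -1.50, while Control ran from -2.17 to 1.31. It fell on poor food in Selected (-2.24 ± 0.28, adjusted p = 0.0318 in edgeR), and the interaction was -2.07 ± 0.57.

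CG6733, which lies close by on 3R (23097728-23099191), had an interaction of -1.26 (95% interval -2.06 to -0.46). A second pair of neighbours, CG10553 and CG10560 (3R 25316461-25318111 and 25318550-25320101), had -1.26 and -1.27. Whether these neighbours share sequence, and so reads, was not tested. CG31373 fell on poor food in Selected by 1.11, was lower on poor food in all 12 populations, and had an interaction of -0.61 (-0.997 to -0.21). CG5697 fell by 3.06 in Selected at medians of 2.70 and 0.307 CPM, and had an interaction of -3.24 (-5.38 to -1.11). The remaining members were CG6125 (-1.999), CG8837 (-1.76), CG17027 (-0.70), CG7149 (-0.55), the protein tyrosine sulfotransferase gene Tpst (-0.48) and grsm (-0.24), none of them called for diet in Selected. The differences of grsm ran from -0.11 to 0.21 in Control and from -0.36 to -0.12 in Selected, without overlap.

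**Figure D3:**
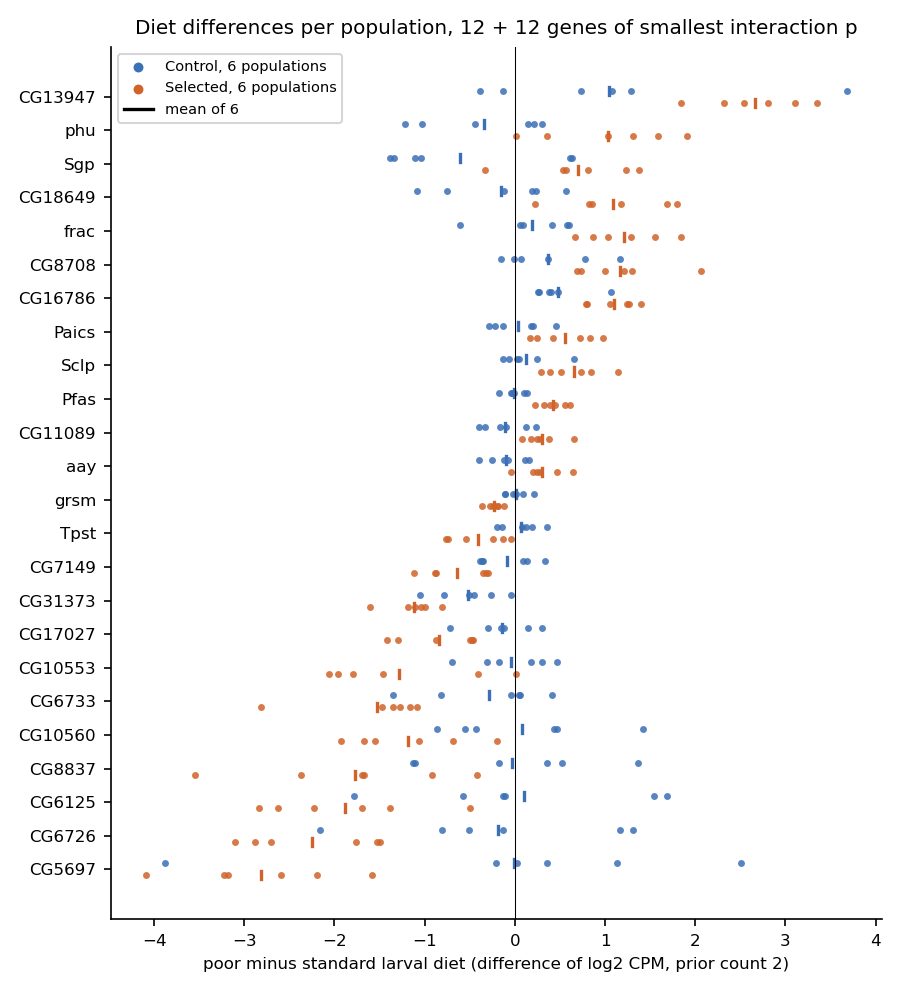
Difference of log2 CPM between poor and standard larval food in each of the 12 populations, for the 12 genes of smallest interaction p in each direction among genes of at least 1 CPM; blue points are Control, orange points Selected, and short bars the mean of 6. Most genes overlap between regimes, and Pfas, frac and grsm do not.

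Complete separation of the 2 regimes was rare. In 10 of 10184 genes (0.0982%) the 6 Selected differences did not overlap the 6 Control differences, with Selected above in 6 and below in 4. A random split of the populations into 6 and 6 separates a gene completely with a probability of 0.0022, which is more than the share found. Lack of overlap therefore does not set a gene apart from what random labels give. With 11 populations, where separation is easier, the count was 36 without C6, 22 without C3, 20 without C4, 17 without S3 and 16 without S4 or S6. Pfas, frac and grsm above are 3 of these. Another, thw (FBgn0037487, 3R 7224414-7241138), named after its values were seen, had differences from -0.36 to 0.75 in Control and from 1.13 to 1.99 in Selected, at levels under 2 CPM in the median of every group. In 0 genes were all 6 differences above 0 in one regime and all 6 below 0 in the other.

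Some genes of the cuticle and of chitin metabolism rose on poor food in Selected. Chitin, a sugar polymer, and the proteins that bind it make up the exoskeleton. Of 30 Cpr cuticle protein genes tested, 4 were called for diet in Selected and 7 over both regimes; of 42 other cuticle, chitin and pigmentation genes 8 and 12 were. Over all genes 0.422% were called higher on poor food in Selected and 1.13% were called in either direction over both regimes, and most members of both lists did not pass. The interaction was called for 0 of them, with 21 of 30 and 29 of 42 positive values, where 44.8% of all genes were positive. Their medians were 0.17 and 0.14 against -0.02 for all genes.

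Gasp (FBgn0026077, 3R 6088799-6100887), a chitin-binding protein gene, had a median of 82.8 CPM on standard and 134 CPM on poor food in Control, and of 95.7 and 220 CPM in Selected. It was higher on poor food in 6 of 6 Selected and 5 of 6 Control populations, where C5 was the exception. It rose in Selected by 1.12 ± 0.09 (adjusted p = 0.0134 in edgeR) against 0.65 ± 0.21 in Control, and the interaction was 0.46 (95% interval -0.06 to 0.98). C5 was also the single Control population below 0 for the cuticle protein genes Cpr100A, with an interaction of 0.60 (-0.04 to 1.24), and Cpr92F, with 0.40 (-0.75 to 1.55). Cpr97Eb had 0.43 (-0.16 to 1.03), the chitin synthase gene kkv 0.51 (-0.35 to 1.38), obst-B 0.38 (-0.08 to 0.85) and the chitin deacetylase genes verm and Cda5 0.31 and 0.17. The 95% intervals of these genes include 0. Their values also depended on single populations: without C5 Cpr92F had 0.06, Gasp 0.29 and Cpr100A 0.36, without C1 Cpr92F had 0.78, and without C3 kkv had 0.86 and Cda5 0.37.

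Among further genes, mostly of the cuticle, some had the larger value in Control and others in Selected. Cpr49Ah responded by 1.19 in Selected and 1.55 in Control, and the cuticle gene Acp1 by 0.97 and 1.37, with interactions of -0.36 (95% interval -1.60 to 0.88) and -0.41 (-1.49 to 0.66). Both signs turned with limma-voom, and that of Cpr49Ah also without C1. The chitinase gene Cht6 (FBgn0263132) had 1.06 in Selected and 0.90 in Control and was higher on poor food in all 12 populations. MFS9 and CG8736 rose in Selected by 1.41 and 2.11, beside 1.01 and 1.39 in Control, and CG8927 by 2.11 beside 1.02. The EGF-repeat membrane protein gene uif rose by 0.96, beside 0.49 in Control. Cpr47Ea, among the 10 genes of smallest diet p in Control, had 1.04 ± 0.24 there and 0.86 ± 0.22 in Selected. Aldh7A1, also among these 10, had -0.40 in Control and -0.53 in Selected.

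In 3 of the 42 other cuticle, chitin and pigmentation genes tested the interaction had an unadjusted p below 0.05, where all genes had 1.52%. Of these yellow-g2, which is also on the eggshell list, was negative (-0.91), at under 1 CPM in every library but S1 on standard food (1.94 CPM). The other 2 were positive: yellow-b, of the yellow family of pigmentation genes, with 0.54 (0.12 to 0.96), and stw, listed in the reference gene table as laccase2, with 0.28 (0.05 to 0.52). The differences of yellow-b ran from -0.29 to 0.38 in Control and from -0.20 to 0.82 in Selected.

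Yolk protein genes, which the female fat body expresses to provision eggs, were lower on poor food in every population of both regimes. Yp1 (FBgn0004045, X 10053811-10055498) had 23750, 29290 and 55240 CPM as lowest, median and highest on standard food and 4567, 18760 and 37770 on poor food in Control. In Selected it had 25140, 32160 and 70130 CPM on standard food and 4418, 10340 and 26480 on poor food. The differences overlapped, from -2.66 to -0.26 in Control and from -3.03 to -0.38 in Selected. The interactions were -0.85 for Yp1 (95% interval -1.97 to 0.27), -1.05 for Yp2 (-2.35 to 0.26) and -0.73 for Yp3 (-1.76 to 0.30), with unadjusted p from 0.106 to 0.148. All 3 were called over both regimes, and 0 in Selected alone. Without C3, which had the lowest Control value in all 3, the Control differences of Yp1 ran no lower than -1.02.

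The insulin receptor gene InR (FBgn0283499, 3R 21570248-21619321), a gene known to rise when insulin signalling is low, was higher on poor food in 12 of 12 populations. Its median was 44.3 and 67.0 CPM on standard and poor food in Control and 49.2 and 80.5 CPM in Selected. It was called in Selected (0.70 ± 0.11, adjusted p = 0.0479 in edgeR) beside 0.47 ± 0.15 in Control, and the interaction was 0.21 (95% interval -0.19 to 0.62). It was 0.37 without C3 and 0.13 without S3. Of the 18 insulin pathway and FOXO target genes tested, 0 were called for the interaction and 12 were positive, with a median of 0.10. Their smallest p belonged to Ilp8, an insulin-like peptide gene known for delaying larval development, at 2.45 (-0.57 to 5.47) and median levels under 2 CPM; limma-trend gave 1.63 and limma-voom 0.82.

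Detoxification genes had 0 interaction calls. GstD1, a glutathione S-transferase gene of the oxidative stress response, was lower on poor food in all 12 populations (-0.37 in Control and -0.46 in Selected), and the interaction was -0.11 (95% interval -0.35 to 0.13). Cyp6a20, a cytochrome P450 gene that stood at a median of 87.9 CPM in Control and 6.39 CPM in Selected on standard food, had an interaction of 0.17 (-0.42 to 0.76). Of 79 P450 genes tested 0 were called and 40 were positive, with a median of 0.01. Cyp4e3 had 0.89 (0.21 to 1.57), Cyp4p1 0.57 (0.06 to 1.07) and Cyp6w1 -0.64 (-1.21 to -0.06). For Cyp4e3 the differences ran from -0.61 to 1.30 in Control and from 0.61 to 1.84 in Selected.

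Genes of the Malpighian tubule, the excretory organ of which pieces stay in the carcass, were among the 21 genes that fell on poor food in Selected. The gene of smallest diet p in Selected was salt (FBgn0039872, 3R 31751825-31754705), for which the reference gene table gives the synonym dSLC5A7, a solute carrier name. Its lowest, median and highest CPM were 8.69, 30.5 and 44.1 on standard food and 0.858, 2.52 and 3.42 on poor food in Selected, where the diets did not overlap. In Control they were 0.275, 15.2 and 38.6 on standard food and 0.111, 12.5 and 46.0 on poor food, which overlap throughout. In the 6 Selected populations salt was lower by 2.88 to 4.15 (-3.61 ± 0.20, adjusted p = 0.0026 in edgeR), while in Control C1 had -5.29, C6 -5.57, C2 4.84 and C3 5.44. The interaction was therefore imprecise, -3.44 ± 1.88 (95% interval -7.53 to 0.65).

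Other transport genes had the same layout. Smvt, a vitamin transporter gene next to salt on 3R, fell in Selected by 3.50 and ran from -5.29 to 6.07 in Control. The organic anion transporter genes Oatp58Dc and Oatp58Db, neighbours on 2R, fell in Selected by 2.96 and 3.48. Oatp58Dc had an interaction of -2.69 (95% interval -5.04 to -0.33), and Oatp58Db, listed at 0 CPM in some Control libraries, -3.24 (-7.91 to 1.42). The P450 gene Cyp6a18 and the pigment precursor transporter gene st had -3.71 (-7.08 to -0.33) and -2.67 (-4.94 to -0.40). Uro, the urate oxidase gene of the tubule, and the potassium channel gene Irk3 were not called for diet in Selected and had -3.16 (-6.78 to 0.46) and -2.22 (-4.48 to 0.03). Drip, an aquaporin gene of the same marker list, had the opposite sign, 0.53 (0.08 to 0.99). The glycerol kinase gene Gk2 fell by 0.58 in Selected, beside -0.30 in Control.

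The tubule marker list had 14 members, all detected. Of these, 3 (salt, Oatp58Db and Oatp58Dc) were called lower on poor food in Selected, where 0.206% of all genes were, and 11 of 14 interactions were negative, with a median of -0.94. The median was -0.52 with no replicate block. The summed level of the list was lower on poor food in 6 of 6 Selected populations, at 340 to 512 CPM on standard and 225 to 378 CPM on poor food. It was lower in 2 of 6 Control populations, at 226 to 644 and 227 to 624 CPM. The median difference over the list ran from -2.32 to -0.15 in Selected and from -0.97 to 1.68 in Control. The part that the amount of leftover tubule has in the result for these genes was not tested.

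Summed markers of other removed tissues also differed between libraries, but did not fall on poor food in all 6 populations of a regime. The summed germline and oocyte markers were lower on poor food in 2 of 6 Control and 3 of 6 Selected populations, the eggshell markers in 2 and 4, and the midgut enzymes in 4 and 3. The list medians of the interaction were -0.73 for germline, -1.06 for eggshell and 2.12 for midgut enzymes, with 0 called in each. These lists were as one-sided as the tubule list: 22 of 24 germline and 13 of 14 eggshell values were negative, and 21 of 26 midgut values positive. With no replicate block the medians were -0.01 for germline, with 12 of 24 positive, and -1.60 for eggshell, with 0 of 14 positive. For midgut enzymes the median was then 0.17, with 13 of 26 positive, against -0.02 for all genes. The per-population medians of the midgut list ran from -4.25 to 0.78 in Control and from -2.87 to 4.96 in Selected. Of the male reproductive markers 3 of 11 were at 0 in every library.

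**Figure D4:**
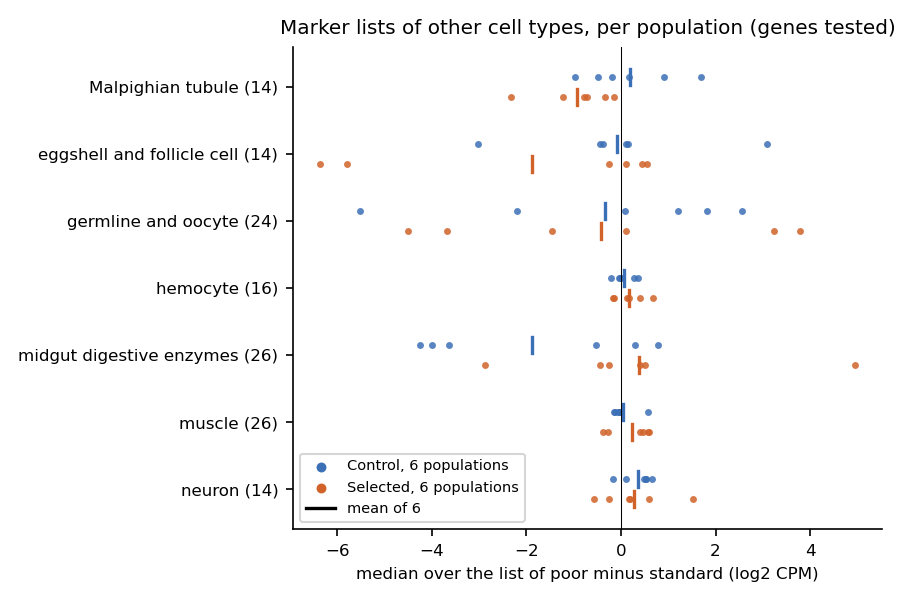
Median difference of log2 CPM between poor and standard larval food over each marker list of other cell types, 1 point per population, Control in blue and Selected in orange, bars giving the mean of 6. The Malpighian tubule list is below 0 in all 6 Selected populations and lies on both sides of 0 in Control, and germline, eggshell and midgut lists have wide ranges in both regimes.

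Over the 43 gene lists, which hold 1263 distinct genes, 0 members were called for the interaction. Several lists of housekeeping functions had one sign nearly throughout, with small values, where 44.8% of all genes were positive. Of 71 nuclear genes of oxidative phosphorylation, the mitochondrial respiratory machinery, 69 were positive, with a median of 0.13 against -0.02 for all genes. Their median diet response was -0.19 in Control and -0.04 in Selected, and the per-population medians overlapped widely, from -0.62 to 0.16 and from -0.45 to 0.18. Cytoplasmic ribosomal protein genes had 84 of 87 positive values and a median of 0.16, glycolysis and gluconeogenesis 16 of 16 and 0.16, and the tricarboxylic acid cycle 16 of 17 and 0.12. Genes of such a list vary together across libraries, so these counts are not counts of independent values.

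Muscle markers, which are part of the body wall, had 24 of 26 positive values and a median of 0.22. Their summed level was 10560 to 14470 CPM on standard and 11750 to 14310 CPM on poor food in Control, and 10520 to 14260 and 12720 to 17360 CPM in Selected. Act88F, an actin gene of the flight muscle, had 1.12 (95% interval 0.11 to 2.13). The part that the share of muscle has in the glycolytic and respiratory values was not tested.

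Lists of nutrient signalling and metabolism had 0 interaction calls. The medians were 0.002 for 22 genes of TOR and amino acid sensing, 0.04 for 21 autophagy genes, 0.01 for 23 genes of fatty acid and triglyceride synthesis and 0.06 for 20 of lipolysis and fatty acid oxidation. Men-b, a malic enzyme gene that supplies reducing power for lipid synthesis, had -0.47 (95% interval -0.91 to -0.02). For 10 glycogen and trehalose genes the median was 0.20, with 9 positive. Tpi, the triosephosphate isomerase gene of glycolysis, had 0.25 ± 0.12 (SE). Of 12 sugar digestion genes, several of them expressed in the midgut, all 12 were positive, with a median of 1.15, but with no replicate block 8 were positive with a median of 0.14, and with germline and midgut scores as covariates 10 with a median of 0.21. Mal-B2, a maltase gene, had 0.49 (0.07 to 0.90) at a median of 482 CPM or more in each group.

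Immune and stress genes showed wide intervals. Antimicrobial and Bomanin peptide genes had 23 of 29 positive values and a median of 0.19, with per-population medians from -0.71 to 0.85 in Control and from -0.01 to 1.19 in Selected. Diedel, a gene of a secreted immune modulator, had 2.29 (95% interval 0.30 to 4.27) at median levels under 1 CPM. Heat shock and chaperone genes had 9 of 25 positive values and a median of -0.11. Lsp2, a larval storage protein gene, had 0.91 (-0.01 to 1.83), lower on poor food in all 6 Control and in 2 of 6 Selected populations.

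**Figure D5:**
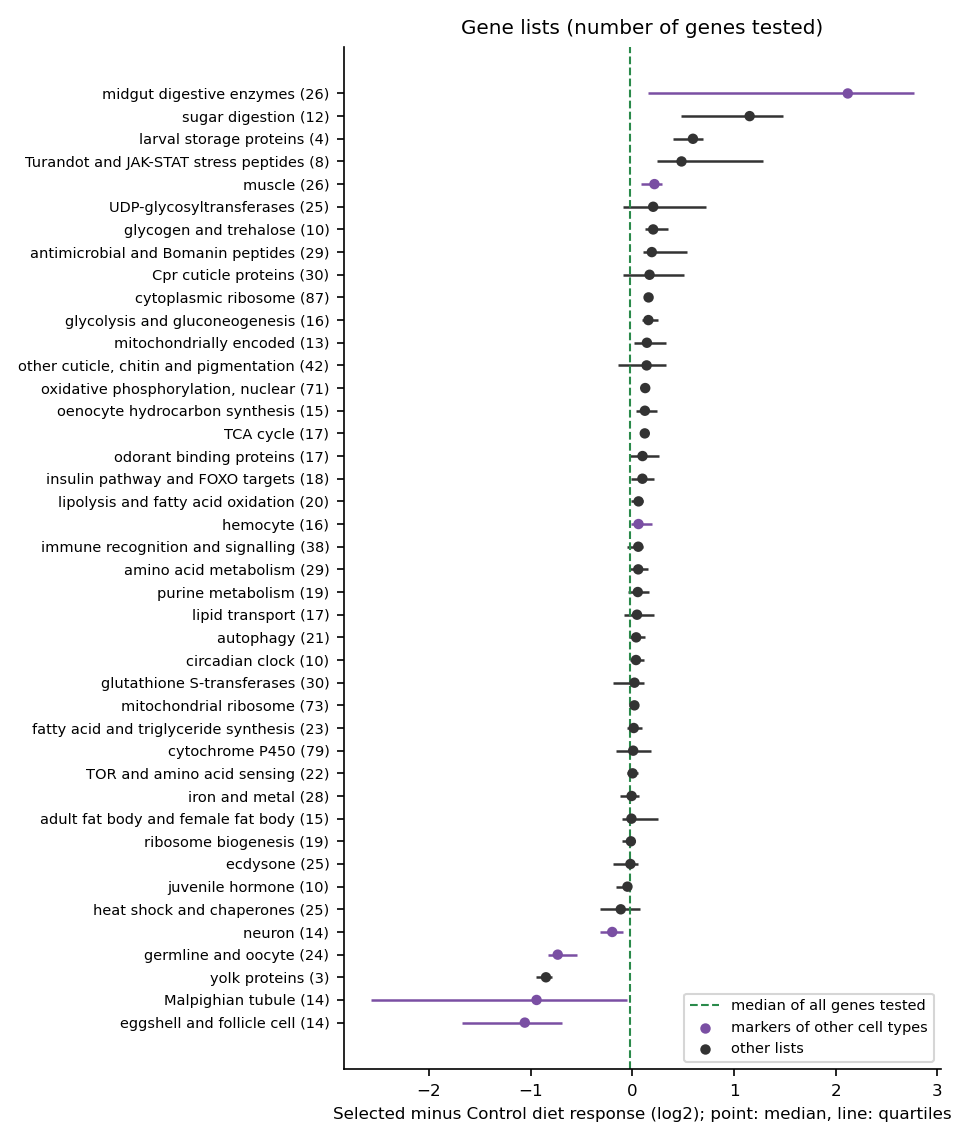
Interaction (log2, diet response in Selected minus that in Control) for the gene lists with at least 3 tested members, as median (point) and quartiles (line), with the number of genes tested in brackets; the dashed line is the median of all 10184 genes, -0.02. The marker lists in purple (midgut at 2.12, germline at -0.73, Malpighian tubule at -0.94 and eggshell at -1.06) lie farthest from that line together with yolk proteins at -0.85 and sugar digestion at 1.15.

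Over all genes at once, the mean size of the paired diet differences differed between regimes by less than the spread between populations. Each such difference is taken between 1 library per diet, so its size holds variation between libraries as well as any response to diet. The root mean square of the log2 differences over the 10184 genes was 0.908 ± 0.199 (SD) in the 6 Control populations and 0.923 ± 0.186 in the 6 Selected ones (two-sided exact permutation test, p = 0.903, where the smallest p such a test can give is 0.0022). The lowest value was 0.671 in S2 and the highest 1.19 in C3. The correlation of the differences across genes between 2 populations averaged 0.013 over the 15 Control pairs, 0.053 over the 15 Selected pairs and 0.049 over the 36 mixed pairs. Across genes, the mean diet responses of both regimes correlated at 0.365, where genes are not independent and share the tissue makeup of each library.

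The 64 genes called in Selected also had different levels of response from one Control population to another. The median of their differences, counted in the direction found in Selected, was 0.94 to 1.56 in the Selected populations that chose them. In Control it was 0.98 in C3, 0.88 in C1, 0.86 in C4, 0.56 in C6, 0.10 in C2 and -0.11 in C5. C1, C3 and C4 were thus near the lowest Selected population, S6 at 0.94, and C2 and C5 were near 0.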

How the data were processed

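Total RNA of 24 carcass pools was sequenced as unpaired reads of 150 bp on 2 lanes, per the labels' protocols. Per the submitters' processing notes, the authors used kallisto 0.46.2, limma and edgeR, with BDGP6 as the build. The use of strand in counting was not stated, so overlapping genes on opposite strands cannot be told apart. Each deposited table gives, per the file headers, an estimated count and a TPM value for each transcript; TPM was not used. A deposited table of log2 values with 24 columns of per-sample values was not used, since its column names match no label.

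A gene was found for 30811 of 30944 transcripts in the BDGP6.54 annotation (release 115), and the 133 others held 0.282% of the counts. Estimated counts were summed per gene (14220 genes) and rounded to whole numbers. Near-identical genes share reads in such a quantification and their values are uncertain; 2 pseudogenes of 18S ribosomal RNA, among the 10 genes of smallest diet p in Control, are left out for this. Positions refer to BDGP6.54 and are 1-based.

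Groups and populations were taken from the characteristics. edgeR 4.0.16 in R 4.3.3 (filterByExpr, TMM factors, quasi-likelihood F test, Benjamini-Hochberg adjustment, threshold 0.05) was fitted to all 24 libraries with population as a block and a diet effect within each regime; the interaction is the effect in Selected minus that in Control. The block comes from the replicate population label; deviations of a population's 2 libraries correlated at 0.22 on average, from -0.23 to 0.69. Diet within a regime was fitted on its 12 libraries. Differences per population are in log2 CPM with a prior count of 2. SEs were derived from each fold change and F statistic. The interaction fit was tested on simulated data, in which each gene was drawn independently of the others. It called 40 of 100 genes given an interaction of 1 log2 unit, 70 of 100 given 2, and 8 of the 9984 given none. Many interactions of 1 log2 unit would thus be missed at the threshold used. The counts may differ for the real libraries, across which genes vary together. DESeq2 1.42.0, limma 3.58.1 (trend, and voom with sample quality weights), other scalings and filters, marker covariates, no block and leaving out each population were tried.

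Genes named are the 12 of smallest interaction p in each direction at a mean of at least 1 CPM, the member of smallest p of the lists described, some of the 10 of smallest diet p in each regime, and Yp1, Yp2, Yp3, InR, Cht6, GstD1 and Cyp6a20. Other members of the purine, amino acid, P450, cuticle and tubule groups, and those called in Selected, were chosen after their values were seen. Of 619 symbols written for the 43 lists 601 were matched. The comparison, the lists and the named genes were chosen with earlier results of these data known. The poor and standard food libraries of a population are paired, and p-values measure the spread of these paired differences between populations. At this sequencing depth, counting error is largest for genes below 1 CPM.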

Additional observations from a re-analysis of the deposited data

Results flagged for a closer look

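Among 6 populations of a regime, a value was picked out where its gap to the nearest other value was more than 0.625 of the whole range. Chance does this for about 5% of groups, and 174 groups were examined. The values picked out, all given here, are about as many as chance would give, so none is set apart from it. In C3 the differences of CG16786 (1.07, next 0.48), Yp1 (-2.66, next -1.02), InR (1.26, next 0.43), Cht6 (2.06, next 0.94) and the chitin synthase gene kkv (2.59, next 0.85) stood apart from the other 5 Control populations, each in the direction of the mean response. C3 was also the population with the highest root mean square difference, 1.19. The muscle list median stood apart in C4 (0.57, next -0.01). In Selected, CG6733 stood apart in S2 (-2.82, next -1.47), whose library on standard food had the lowest total count, Cyp4p1 in S3 (0.058, next 0.53) and yellow-b in S4 (-0.20, next 0.48). What sets these values apart was not tested.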

How the results depend on the processing

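The interaction count was 0 under every alternative tried but DESeq2, which gave 1, Pfas at 0.4332 (adjusted p = 0.0336). It was 0 without the replicate block too, where 72 genes had an unadjusted p below 0.05 against 155 with it. That number was 262 with DESeq2, 730 with limma-voom and 459 with germline and midgut scores as covariates, and 97 to 271 leaving out single populations. The Control diet count was 14 with DESeq2, 2 with the covariates and 0 otherwise. The Selected count of 64 was 108 with library totals, 395 with DESeq2, 102 with limma-voom, 261 with the covariates and 37 within the fit of all libraries, and 1 to 30 leaving out a Selected population. Over both regimes 115 became 186 with library totals, 545 with DESeq2, 209 with limma-voom, 21 with no replicate block, 357 with the covariates and 3 to 139 leaving out single populations. The 10 separated genes were 6 with a filter of 1 CPM in 12 libraries and 10 to 36 leaving out single populations. The Selected minus Control root mean square difference, 0.015, was -0.015 with a prior count of 0.5 and -0.028 to 0.072 leaving out single populations, with no p near the threshold (0.805 or more where the sign turned). The cause of these changes was not tested, beyond the fewer samples of a fit that leaves out a population.

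Of the 78 named genes, the sign turned for Cpr49Ah (0.057 with limma-voom, -0.72 to 0.059 leaving out single populations), Acp1 (0.107 with limma-voom) and Prat (-0.34 to 0.14 leaving out single populations); the other values kept their direction. Library totals moved the median of all genes from -0.02 to -0.06. The medians of oxidative phosphorylation (0.13), cytoplasmic ribosome (0.16) and glycolysis (0.16) were then 0.09, 0.12 and 0.12, those of autophagy, fatty acid synthesis and TOR sensing -0.002, -0.03 and -0.04, and that of P450 genes -0.03. With the covariates the germline median turned from -0.73 to 0.27 and the midgut median from 2.12 to -0.01, since those lists make the covariates; with no replicate block they were -0.01 and 0.17. Depth limits genes under 1 CPM most.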
